A study of Rattus norvegicus with 9 samples.

Results

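The genes described here are interferon-stimulated genes, the interferon receptors, and the IRF and STAT transcription factors that connect them. A list of 48 gene symbols was matched to the symbols of the expression table, and 47 of them were found among its 17298 genes (the other symbol, Xaf1, was not analysed here). Of the 47, 31 had a mean of at least 1 FPKM over the 9 libraries and were tested, as did 11372 genes in all, and 16 lay below that level. FPKM values are fragment numbers divided by transcript length and by the size of the library, so levels of different genes are compared only on this per-length scale. The libraries were made from wild-type (WT) rat synovial fibroblasts, connective tissue cells isolated from joint lining by enzymatic digestion. Of the 3 groups of 3 libraries, control had routine culture without IL-1β, the IL-1β group was stimulated with that cytokine, and the co-culture group was co-cultured, following IL-1β, under a porous transwell insert that carried dermal fibroblasts. Strain, age, and the dose and duration of IL-1β are not stated, nor whether the replicates came from separate animals or cultures, so that the spread a p-value is set against may be only technical. No group had co-culture without IL-1β, and an empty insert is not mentioned for the other groups, so the insert and the dermal cells cannot be told apart.

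Interferons are secreted antiviral cytokines. Type I interferons bind a receptor built from Ifnar1 and Ifnar2, and interferon gamma binds one built from Ifngr1 and Ifngr2. Type I signalling brings Stat2 and Irf9 together in a complex that binds the interferon-stimulated response element (ISRE) in promoters, while interferon gamma acts mainly on the gamma-activated site (GAS). IL-1β is an inflammatory cytokine that signals mainly through NF-kB and MAP kinases.

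The cultures carried fibroblast RNA and a large response to IL-1β. All 12 fibroblast markers were tested, the lowest being Fap (7.11 to 12.3 FPKM over the 9 libraries) and the others including Pdgfra (134 to 169 FPKM). Il6 stood at 39.5 ± 2.66 FPKM in control, 1069 ± 42.3 with IL-1β and 106 ± 2.7 in co-culture (mean ± SD, n = 3 here and throughout). Ptprc, the pan-leukocyte marker CD45, stayed between 0.04 and 0.13 FPKM and Csf1r, a macrophage receptor, between 0.26 and 0.38. Of the 14 measured macrophage and leukocyte markers, 8 were higher in all 3 IL-1β libraries than in any control library, and 2, Ptprc and Lyz2, were lower in all 3. Of all tested genes, 58.3% did not overlap between these groups in either direction, and only 5 of the 14 markers were high enough to be tested. Cd68 went from 2.3 ± 0.454 to 4.77 ± 0.88 FPKM (adjusted p = 0.000537), and Cd163, a macrophage scavenger receptor too low to be tested, from 0.0333 ± 0.0153 to 0.47 ± 0.104 FPKM. Mrc1 and Adgre1, also not tested, went from 0.653 ± 0.169 and 0.487 ± 0.0306 to 1.54 ± 0.225 and 1.22 ± 0.302 FPKM. The summed level of these 14, of 17 listed, was 31.1 to 32.6 FPKM in control, 42.5 to 49.3 with IL-1β and 31.3 to 34.5 in co-culture, with Cd14 alone at 13.5 ± 0.585, 22.7 ± 0.821 and 15.8 ± 0.304 FPKM. The B-cell marker Cd79a was listed at 0 in 7 of 9 libraries. The part of these markers in the results that follow was not tested. In bulk RNA, fewer cells of a type and less RNA per cell cannot be told apart.

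Promoter sequences came from RefSeq (build GRCr8), which held a window from 250 bases before to 50 after the annotated start for 34 of the 47 genes, matched by gene identifier. An ISRE core, here GAAA, any 2 bases and GAAA again, was found on either strand in 19 of the 34 windows, against 1034 of all 27457 windows in the table (3.77%). A GAS core, the palindrome TTCNNNGAA, was found in 9 of the 34, against 8.68% of all windows. An NF-kB core, here GGG, any 2 bases and TTTCC on either strand, was found in 3 of the 34, against 1.51%. Matches of different motifs could overlap, and a match describes letters in the window, not binding. The 200 bases before the start are shown for 7 genes, in lower case with ISRE and GAS cores in capitals. Igtp and Parp14 were lower with IL-1β and hold a GAS core followed by an ISRE core, Irf7 and Irf1 are transcription factors that were lower, Ifitm2 and Ifitm3 are related genes that moved apart, and Ifi27 had the largest rise of the 31 genes.
Igtp (chr10:42874847-42875046, plus strand): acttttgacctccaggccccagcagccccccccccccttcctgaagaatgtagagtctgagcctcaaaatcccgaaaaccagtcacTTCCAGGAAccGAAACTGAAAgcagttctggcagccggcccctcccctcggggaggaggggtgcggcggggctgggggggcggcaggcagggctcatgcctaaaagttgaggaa
Parp14 (chr11:78407934-78408133, plus strand): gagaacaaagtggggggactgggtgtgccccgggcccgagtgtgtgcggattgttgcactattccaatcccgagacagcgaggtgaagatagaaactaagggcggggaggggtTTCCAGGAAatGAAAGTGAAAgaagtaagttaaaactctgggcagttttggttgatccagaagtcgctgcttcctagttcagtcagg
Irf7 (chr1:205800024-205800223, minus strand): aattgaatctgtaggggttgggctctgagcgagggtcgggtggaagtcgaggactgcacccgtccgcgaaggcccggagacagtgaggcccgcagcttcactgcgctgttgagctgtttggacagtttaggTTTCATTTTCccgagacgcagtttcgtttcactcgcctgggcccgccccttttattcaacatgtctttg
Irf1 (chr10:38417735-38417934, plus strand): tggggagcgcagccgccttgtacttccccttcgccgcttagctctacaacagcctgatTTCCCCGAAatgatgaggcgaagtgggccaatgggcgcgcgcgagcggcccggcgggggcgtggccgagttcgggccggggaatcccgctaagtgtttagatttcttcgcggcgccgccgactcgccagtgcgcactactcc
Ifitm2 (chr1:205482349-205482548, minus strand): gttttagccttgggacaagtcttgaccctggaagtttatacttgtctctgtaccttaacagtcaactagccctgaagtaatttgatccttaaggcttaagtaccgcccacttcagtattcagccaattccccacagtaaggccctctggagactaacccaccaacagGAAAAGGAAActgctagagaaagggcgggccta
Ifitm3 (chr1:205541759-205541958, minus strand): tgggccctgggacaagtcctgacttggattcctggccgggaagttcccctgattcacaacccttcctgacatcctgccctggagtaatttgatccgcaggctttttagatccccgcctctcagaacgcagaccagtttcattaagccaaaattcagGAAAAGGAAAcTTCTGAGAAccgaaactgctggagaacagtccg
Ifi27 (chr6:128355112-128355311, plus strand): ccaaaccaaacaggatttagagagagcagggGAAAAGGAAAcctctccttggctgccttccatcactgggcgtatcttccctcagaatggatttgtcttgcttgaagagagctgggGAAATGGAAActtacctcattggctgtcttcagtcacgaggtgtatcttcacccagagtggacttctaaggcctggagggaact

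Many widely used reporters of interferon exposure were barely detected in any group. Of the 16 genes below the test level, 10 stayed under 0.3 FPKM in every library: Ifit1, Ifit3, Oas1a, Oas2, Oasl, Mx1, Mx2, Rsad2, Herc6 and Ifi44l. Mx1, a dynamin-like GTPase that blocks viruses, was at 0.04, 0 and 0.08 FPKM in control, 0, 0.02 and 0 with IL-1β and 0.02, 0.04 and 0.04 in co-culture. Ifit1, which binds foreign RNA caps, was listed at 0 in 7 of 9 libraries and at most at 0.03 FPKM, Oas2, an activator of RNase L, was listed at 0 in 8, and Rsad2, the enzyme viperin, in 6. A listed 0 without counts can be a failed estimate, so no fold is given for these genes. All 9 values of Oas2 were also those of 14 other genes, and those of Rsad2 were shared with 1 other gene. The other 6 were the ubiquitin-like modifier Isg15 (0.31 to 1.36 FPKM), the exonuclease Isg20 (0.56 to 1.39), the nucleotide kinase Cmpk2 (0.21 to 0.7), the RNA sensor Dhx58 (0.19 to 0.41), the GTPase Gbp5 (0.19 to 0.41) and Rtp4 (0.13 to 0.35). With no filter on low values, limma called 2 of the 16 with IL-1β against control, Cmpk2 and Gbp5, both lower, and 0 in each of the other comparisons (1 in each at an unadjusted p under 0.05). Just inside the filter lay Bst2, with a mean of 1.47 FPKM, and just outside it Isg20, with 0.903. At the other end, Ifitm3 and Ifitm2, membrane proteins that restrict virus entry, had means of 626 and 539.5 FPKM over all libraries.

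**Figure D1:**
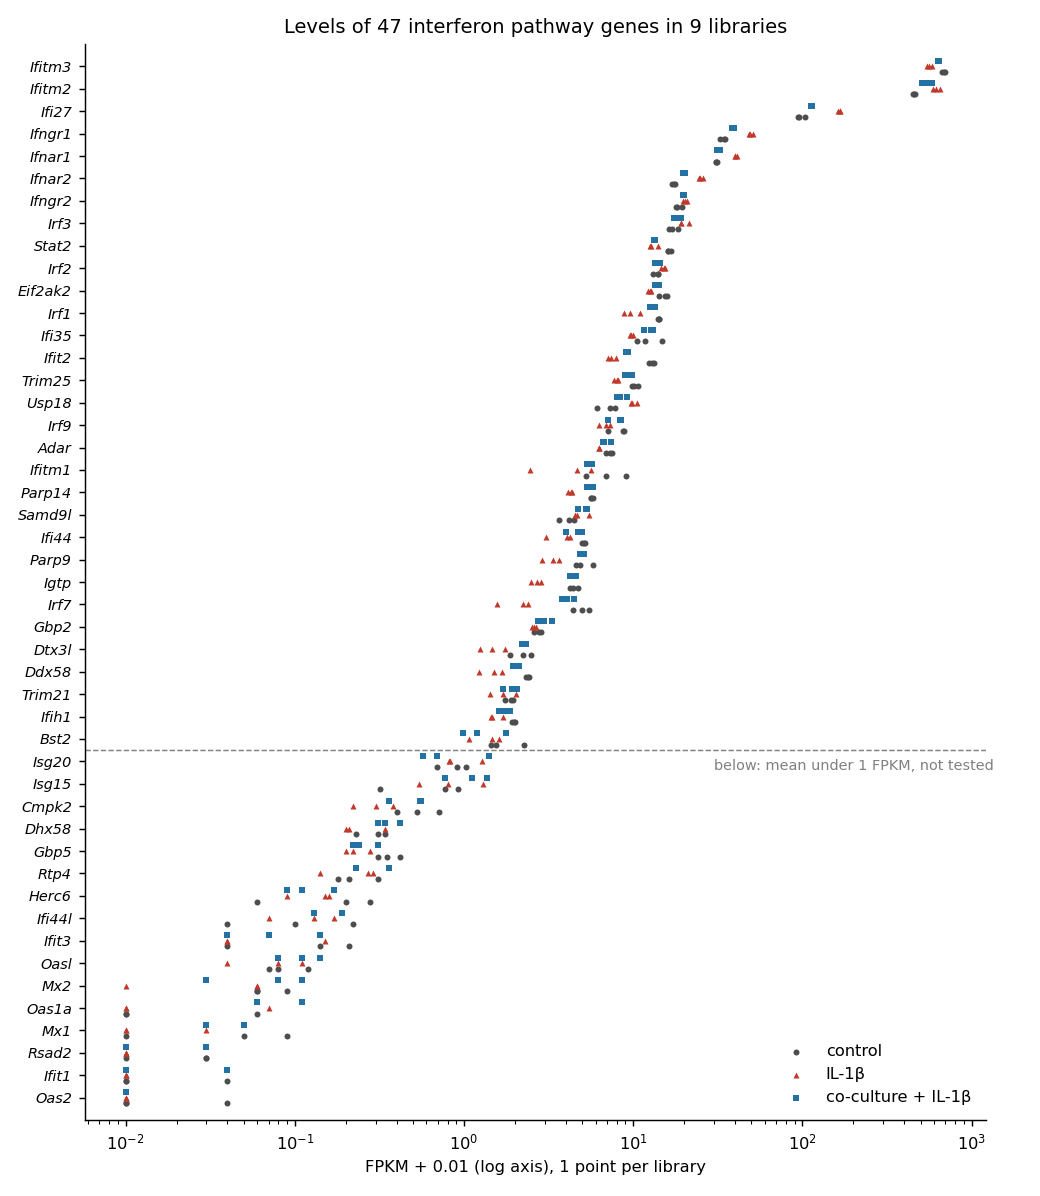
FPKM plus 0.01 of the 47 genes in each of the 9 libraries on a log axis, ordered by mean, with control as circles, IL-1β as triangles and co-culture as squares. Ifitm3, Ifitm2 and Ifi27 stand above the rest, and the 16 genes under the dashed line include Mx1, Oas2, Ifit1 and Rsad2, at or near 0 in every group.

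With IL-1β, the 4 receptors rose, while 13 of the 21 tested interferon-stimulated genes other than receptors and transcription factors fell. Irf7, a factor that amplifies type I interferon responses, fell from 4.94 ± 0.53 to 2.05 ± 0.433 FPKM, and Ifit2, an RNA-binding antiviral protein, from 12.9 ± 0.415 to 7.48 ± 0.436 FPKM. Ifi27 went the other way, from 98 ± 4.81 to 166 ± 2.31 FPKM. Of the 31 tested genes, 10 were higher and 16 lower at an adjusted p below 0.05 (limma on log2(FPKM + 1), Benjamini-Hochberg over all genes), and 5 did not pass. Of all 11372 genes, 20.5% were higher and 31.2% lower (51.7% in all), so much of the transcriptome moved with IL-1β as well. The libraries of the 2 groups did not overlap for 26 of the 31 genes, against 58.3% of all genes. Log2 fold changes, which this scale understates for low genes, ran from -0.97 to 0.75, so on this scale 0 of the 31 reached 1 in size. Of all genes, 4.61% reached 1 in size and also had an adjusted p below 0.05. As a ratio of mean FPKM without a pseudocount, Irf7 with IL-1β stood at 0.415 of control, and co-culture at 2 times IL-1β. The median log2 fold change of the 31 was -0.23, and that of all genes -0.044.

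**Figure D2:**
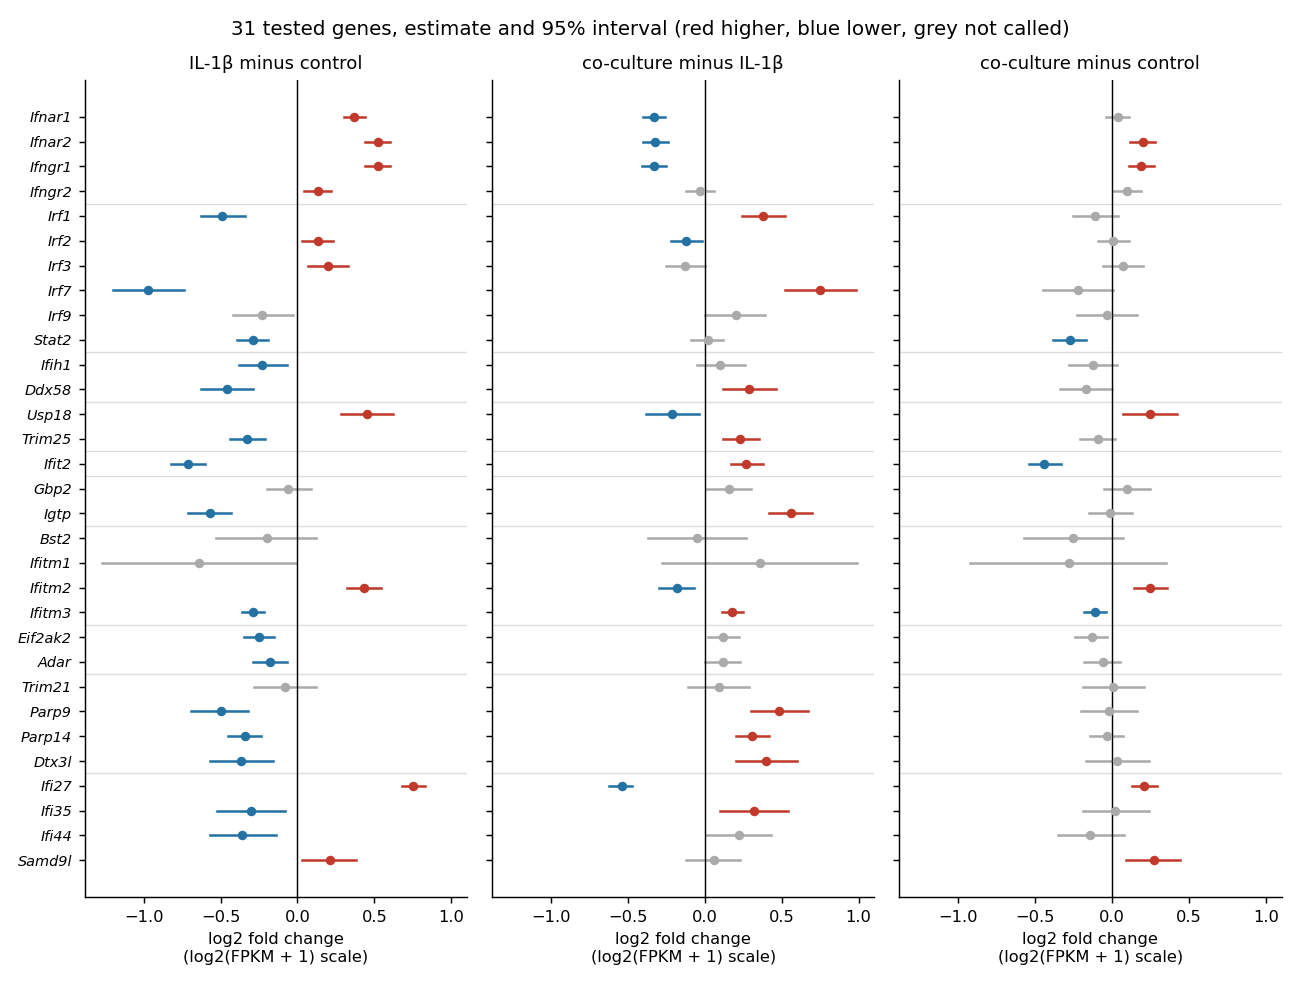
Log2 fold change with 95% interval of the 31 tested genes in the 3 comparisons, grouped by role from receptors at the top, in red where higher, blue where lower and grey where not called. With IL-1β all 4 receptors lie above 0 and Irf7, at -0.97, furthest below; for co-culture against control the values lie nearer to 0, with Ifit2 at -0.44.

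All 4 receptor genes rose with IL-1β. Ifnar1 was at 31.32, 30.83 and 30.73 FPKM in control, 40.07, 39.77 and 40.97 with IL-1β and 32.78, 31.17 and 31.41 in co-culture. Its IL-1β libraries stood above all others, with a log2 fold change of 0.37 ± 0.03 (standard error) against control (adjusted p = 2.02e-06) and -0.33 ± 0.03 for co-culture against IL-1β (adjusted p = 7e-06). Ifnar2 was at 17.3, 16.91 and 17.63 FPKM in control, 24.63, 24.85 and 26.02 with IL-1β and 20.22, 19.66 and 20.11 in co-culture. The 3 groups of Ifnar2 did not overlap, and co-culture was above control (0.20 ± 0.04, adjusted p = 0.00276) and below IL-1β (-0.32 ± 0.04). Ifngr1, the ligand-binding chain for interferon gamma, rose from 34.1 ± 1.23 to 49.3 ± 1.29 FPKM and was at 39.1 ± 0.591 in co-culture, again above control (0.19 ± 0.04, adjusted p = 0.00298). Ifngr2, its signalling partner, moved least, from 18.4 ± 0.783 to 20.3 ± 0.598 FPKM (adjusted p = 0.0191), a call lost without control replicate 1 (0.0621), control replicate 2 (0.0756) or IL-1β replicate 1 (0.0663). In co-culture Ifngr2 was at 19.8 ± 0.186 FPKM, and its difference from IL-1β, -0.03 with a 95% interval of -0.12 to 0.06, did not pass. In the RefSeq table Ifngr2 is the next protein-coding gene after Ifnar1.

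Among the transcription factors, Irf7 and Irf1 fell most with IL-1β. Irf7 was at 4.4, 4.95 and 5.46 FPKM in control, 2.21, 2.38 and 1.56 with IL-1β and 3.79, 4.46 and 4.05 in co-culture. No IL-1β library reached the lowest of the others, with a log2 fold change of -0.97 ± 0.11 against control (adjusted p = 1.27e-05) and 0.75 ± 0.11 for co-culture against IL-1β (adjusted p = 0.000123). Irf1, an activator of antiviral and interferon gamma target genes, was at 13.94, 14.12 and 14.21 FPKM in control, 9.6, 11.02 and 8.76 with IL-1β and 13.44, 12.92 and 12.64 in co-culture. It was lowest in the 3 IL-1β libraries (-0.49 ± 0.07, adjusted p = 6.86e-05) and higher in co-culture than with IL-1β (0.38 ± 0.07, adjusted p = 0.000546). Its window holds a GAS core and no match to the ISRE or NF-kB letters searched. Looser forms of the NF-kB site were not searched for. The printed Irf1 sequence holds GGGGAATCCC, which the searched letters leave out. Stat2, a subunit of the type I complex, was at 16.79, 16.07 and 16.04 FPKM in control, 14.08, 12.79 and 12.56 with IL-1β and 13.36, 13.32 and 13.22 in co-culture. Both treated groups lay below control and overlapped each other: co-culture differed from control by -0.27 ± 0.05 (adjusted p = 0.00163) and from IL-1β by 0.02, with a 95% interval of -0.09 to 0.12.

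The remaining IRF genes moved little. Irf2, an antagonist of Irf1, was at 13.7 ± 0.496 FPKM in control and 15.1 ± 0.467 with IL-1β (adjusted p = 0.0311), a call lost without control replicate 1 (0.119), IL-1β replicate 2 (0.098) or IL-1β replicate 3 (0.0734). Irf3, the factor activated by RNA and DNA sensing, was at 17.2 ± 1.1 and 19.9 ± 1.31 FPKM (adjusted p = 0.0138), a call lost without control replicate 2 (0.0584) or IL-1β replicate 3 (0.0571). Irf9, the DNA-binding subunit of the type I complex, was at 8.2 ± 0.998 FPKM in control and 6.83 ± 0.497 with IL-1β and missed the threshold (adjusted p = 0.0505). It passed without control replicate 2 (0.00771), IL-1β replicate 1 (0.0483) or co-culture replicate 3 (0.0363), with a replicate block (0.0469) and in a fit of the 2 groups alone (0.0489). Irf2 was lower in co-culture than with IL-1β (-0.12 ± 0.05, adjusted p = 0.0472), a call lost without control replicate 2 (0.0554) or 3 (0.0582), IL-1β replicate 2 (0.137) or 3 (0.103), or co-culture replicate 2 (0.133) or 3 (0.129). It was also lost with a replicate block (0.0668) and in a fit of the 2 groups alone (0.0626). Irf3 did not pass for co-culture against IL-1β (adjusted p = 0.0948) except after median-of-ratios scaling (0.0177) or quantile normalization (0.026), nor did Irf9 (0.0886) except without control replicate 2 (0.0439) or co-culture replicate 3 (0.0313). None of Irf2, Irf3 and Irf9 passed in co-culture against control.

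**Figure D3:**
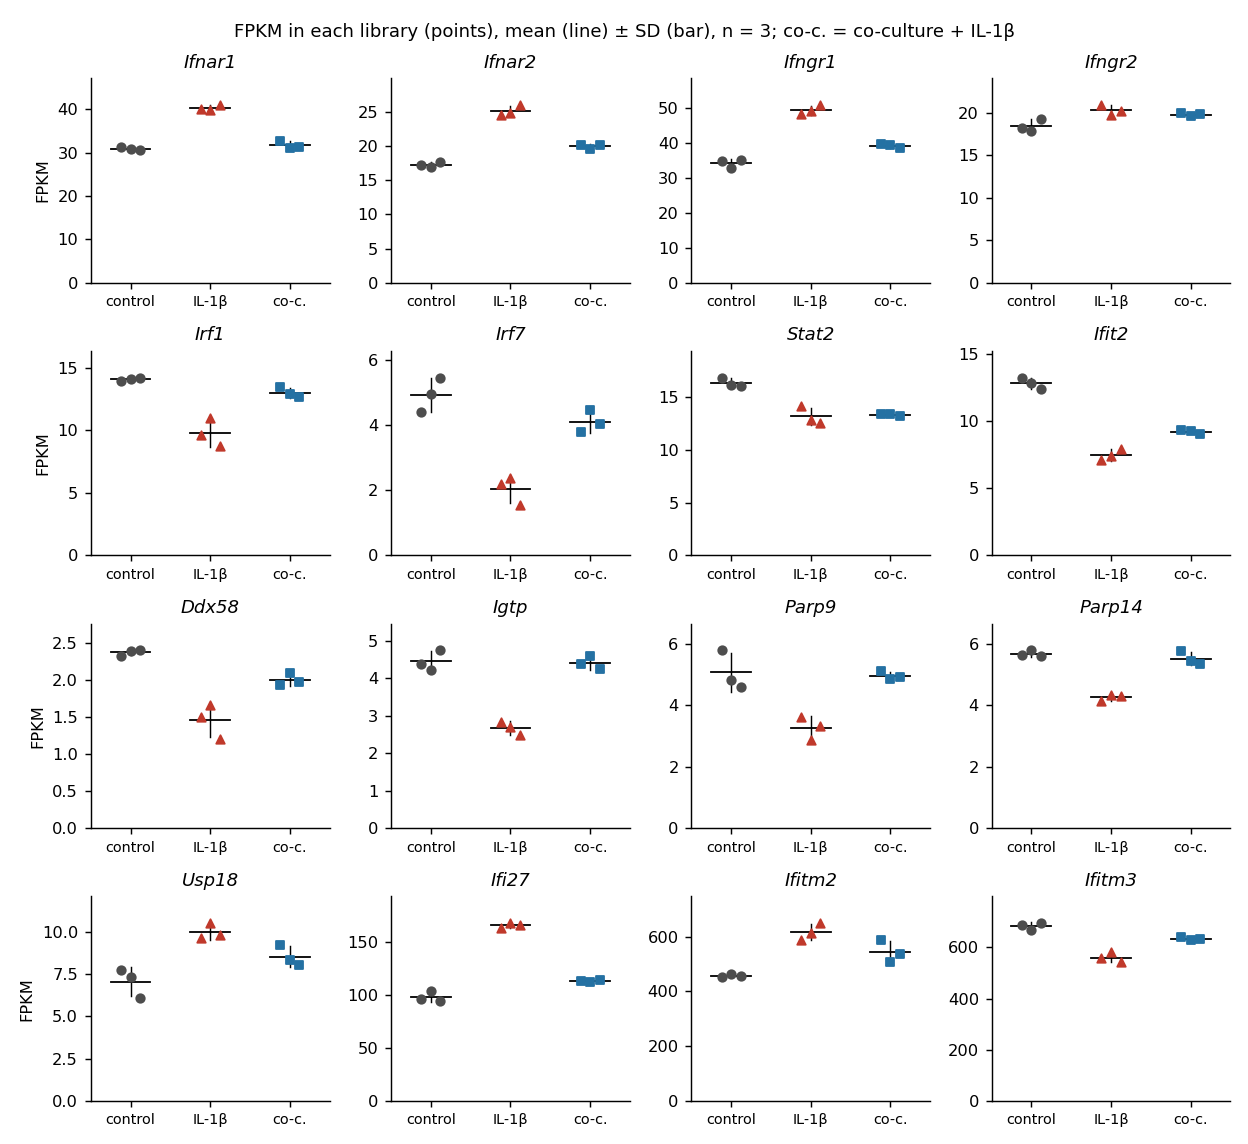
FPKM of 16 genes in each library (points) with the group mean (line) and SD (bar), n = 3, for control, IL-1β and co-culture, each axis starting at 0. The IL-1β libraries are the highest for Ifnar1 and Ifi27 and the lowest for Irf7, Ifit2 and Igtp, and the co-culture libraries of Ifit2 and Stat2 lie below control.

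The RNA sensor genes Ddx58, Ifih1 and Dhx58 were all low, and the 2 of them that could be tested fell with IL-1β. Ddx58, which encodes the sensor RIG-I, was at 2.33, 2.39 and 2.4 FPKM in control, 1.5, 1.66 and 1.21 with IL-1β and 1.93, 2.09 and 1.98 in co-culture. Its 3 groups did not overlap, with a log2 fold change of -0.46 ± 0.08 for IL-1β (adjusted p = 0.000362) and 0.29 ± 0.08 for co-culture against IL-1β (adjusted p = 0.008). Ifih1, the sensor MDA5, went from 1.96 ± 0.0458 to 1.53 ± 0.145 FPKM (adjusted p = 0.0186), a call lost without control replicate 2 (0.0545), IL-1β replicate 2 (0.0606) or 3 (0.0566) and after quantile normalization (0.0515). Eif2ak2, the RNA-dependent kinase PKR, fell from 15.1 ± 0.759 to 12.5 ± 0.285 FPKM (-0.25 ± 0.05, adjusted p = 0.000836), and Adar, an RNA editing enzyme, from 7.24 ± 0.291 to 6.27 ± 0.0115 FPKM (adjusted p = 0.0128). In co-culture Adar was at 6.89 ± 0.399 FPKM and did not pass against IL-1β (adjusted p = 0.0833). Eif2ak2 was at 13.7 ± 0.493 FPKM there. It did not pass against IL-1β (adjusted p = 0.0549) or control (0.0684), but did in both without control replicate 2 (0.0416 and 0.0366), and against control after median-of-ratios scaling (0.0452) or quantile normalization (0.0476).

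The ISG15 pathway was split. Usp18, the protease that removes ISG15 and damps the type I receptor, was at 7.75, 7.33 and 6.09 FPKM in control, 9.66, 10.52 and 9.79 with IL-1β and 9.21, 8.33 and 8.04 in co-culture. It rose with IL-1β (0.45 ± 0.08, adjusted p = 0.000462), and its co-culture libraries lay between the other groups without overlap. They passed against IL-1β (adjusted p = 0.0443), a call lost without control replicate 2 (0.0529), IL-1β replicate 1, 2 or 3 (0.0613, 0.139 and 0.0723) or co-culture replicate 2 or 3 (0.109 and 0.139). It was also lost without trend and robust moderation (0.0597). The co-culture libraries also passed against control (adjusted p = 0.0457), a call lost without any single library other than control replicate 1 (0.0536 to 0.159) and after median-of-ratios scaling (0.0656). The call against control was lost too without trend and robust moderation (0.0669) and in a fit of the 2 groups alone (0.0737). Trim25, a ubiquitin ligase that activates RIG-I, fell from 10.2 ± 0.451 to 7.93 ± 0.236 FPKM (-0.33 ± 0.05, adjusted p = 0.000231) and was at 9.51 ± 0.486 FPKM in co-culture (0.23 ± 0.05 against IL-1β, adjusted p = 0.00273). Isg15 itself and the ligase Herc6 were below the test level.

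Of 6 IFIT and OAS genes only Ifit2 could be tested, at 13.26, 12.87 and 12.43 FPKM in control, 7.09, 7.4 and 7.95 with IL-1β and 9.34, 9.29 and 9.1 in co-culture. The 3 groups did not overlap. It fell with IL-1β (-0.71 ± 0.05, adjusted p = 2.07e-07), and in co-culture it was above IL-1β (0.27 ± 0.05, adjusted p = 0.000679) and below control (-0.44 ± 0.05, adjusted p = 7.89e-05). Ifit3, the next protein-coding gene in the RefSeq table, was at 0.03 to 0.2 FPKM. Igtp, an interferon gamma-inducible GTPase of the IRG family, was at 4.38, 4.22 and 4.74 FPKM in control, 2.84, 2.69 and 2.48 with IL-1β and 4.38, 4.6 and 4.24 in co-culture. Its IL-1β libraries stood below both other groups (-0.57 ± 0.06, adjusted p = 1.28e-05), which overlapped, and co-culture differed from control by -0.01 (95% interval -0.15 to 0.13). Gbp2, a guanylate-binding protein, was at 2.73 ± 0.121, 2.58 ± 0.0709 and 3 ± 0.287 FPKM in the 3 groups. It passed in no comparison (adjusted p = 0.501, 0.0712 and 0.335), except co-culture against IL-1β without co-culture replicate 2 (0.0376) or without trend and robust moderation (0.0359).

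The ADP-ribosylation genes Parp9 and Parp14 and the ubiquitin ligase gene Dtx3l were lower with IL-1β and higher in co-culture than with IL-1β. Parp9, which pairs with Dtx3l in DNA damage and interferon responses, was at 5.78, 4.83 and 4.58 FPKM in control, 3.61, 2.87 and 3.33 with IL-1β and 5.11, 4.84 and 4.91 in co-culture. Its IL-1β libraries were the 3 lowest, with log2 fold changes of -0.50 ± 0.08 for IL-1β (adjusted p = 0.00035) and 0.48 ± 0.08 for co-culture against IL-1β (adjusted p = 0.00055). Dtx3l was at 2.19 ± 0.316, 1.47 ± 0.251 and 2.25 ± 0.07 FPKM in the 3 groups (adjusted p = 0.00599 and 0.00389 in these comparisons). Parp14, a mono-ADP-ribosyltransferase, was at 5.67 ± 0.1, 4.25 ± 0.114 and 5.51 ± 0.212 FPKM (adjusted p = 0.000118 and 0.000309). Against control, co-culture values differed by -0.02 for Parp9, 0.03 for Dtx3l and -0.03 for Parp14, and none passed. In the RefSeq table Parp9, Dtx3l and Parp14 are consecutive protein-coding genes. Trim21, an antibody receptor and ubiquitin ligase, was at 1.85 ± 0.112, 1.71 ± 0.31 and 1.88 ± 0.182 FPKM and passed in no comparison.

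The IFITM genes are neighbours and close relatives, so reads may have been split between them by the counting, and their separate levels are uncertain. Ifitm2 was at 453, 463 and 456 FPKM in control, 589, 614 and 649.8 with IL-1β and 586, 507 and 538 in co-culture, a rise of 0.43 ± 0.05 with IL-1β (adjusted p = 2.27e-05). Ifitm3 was at 688, 669 and 695 FPKM in control, 557, 581 and 544 with IL-1β and 639.8, 630.1 and 632 in co-culture, a log2 fold change of -0.29 ± 0.03 (adjusted p = 1.26e-05). Ifitm3 was thus the higher of the pair in the 6 libraries of control and co-culture, and Ifitm2 in the 3 with IL-1β alone. In co-culture Ifitm2 was above control (0.25 ± 0.05, adjusted p = 0.00492). Ifitm3 was below it (-0.11 ± 0.03, adjusted p = 0.0309), a call lost without control replicate 1 (0.0962) or 3 (0.0938) and without co-culture replicate 1, 2 or 3 (0.0538, 0.089 and 0.0779). This call was also lost with a replicate block (0.0568) and without trend and robust moderation (0.0637). Ifitm1, which lies between Ifitm2 and Ifitm3, scattered more, at 6.86, 9.03 and 5.23 FPKM in control, 2.44, 4.67 and 5.65 with IL-1β and 5.32, 5.41 and 5.71 in co-culture. Control and IL-1β overlapped and no comparison passed (adjusted p = 0.084 with IL-1β, but 0.0355 without IL-1β replicate 3). Bst2, the virus-retaining protein tetherin, was at 1.74 ± 0.439, 1.37 ± 0.275 and 1.3 ± 0.409 FPKM and passed in none.

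Ratios within a library do not depend on how libraries are scaled. The ratio of Ifitm2 to Ifitm3 was 0.669 ± 0.02 in control, 1.1 ± 0.08 with IL-1β and 0.858 ± 0.056 in co-culture. Irf1 to Irf2, an activator over its antagonist, was 1.03 ± 0.029, 0.648 ± 0.068 and 0.94 ± 0.013, and Irf7 to Irf3 was 0.289 ± 0.045, 0.104 ± 0.028 and 0.226 ± 0.0085. Groups did not overlap in any of the 3 ratios, which were chosen with the values known. The exact permutation test on both sides gave p = 0.1 in all 3 comparisons of each, the smallest that 3 libraries against 3 allow, so none could reach the threshold.

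**Figure D4:**
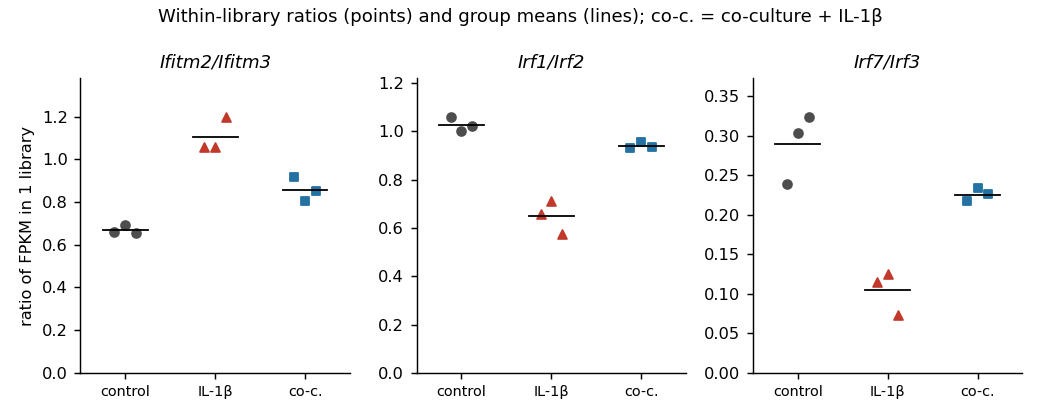
Ratio of the FPKM of 2 genes within each library (points) and group means (lines) for 3 pairs, by group, with axes starting at 0. Ifitm2/Ifitm3 passes 1 in the IL-1β libraries alone, and Irf1/Irf2 and Irf7/Irf3 are lowest there.

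Of the remaining interferon-stimulated genes, Ifi27 changed most. Ifi27, widely used as an interferon marker, was at 95.76, 104 and 94.73 FPKM in control, 163, 168 and 166 with IL-1β and 113, 112 and 114 in co-culture. The 3 groups did not overlap, with log2 fold changes of 0.75 ± 0.03 for IL-1β (adjusted p = 6.32e-09), -0.54 ± 0.03 for co-culture against IL-1β (adjusted p = 1.97e-07) and 0.21 ± 0.03 for co-culture against control (adjusted p = 0.00148). Ifi44 fell from 5.1 ± 0.135 to 3.79 ± 0.641 FPKM (adjusted p = 0.00914) and was at 4.56 ± 0.506 in co-culture, which did not pass against IL-1β (adjusted p = 0.0804) except without IL-1β replicate 1 (0.0406), without co-culture replicate 3 (0.0354) or with a replicate block (0.0286). Ifi35 was at 12.4 ± 2.25, 9.77 ± 0.204 and 12.5 ± 0.766 FPKM. Its fall with IL-1β (adjusted p = 0.0251) was lost without control replicate 2 (0.0518) or IL-1β replicate 1, 2 or 3 (0.0692, 0.0506 and 0.0662). Its higher level in co-culture than with IL-1β (adjusted p = 0.0188) was lost without IL-1β replicate 1 (0.0553) or 3 (0.0528), without co-culture replicate 1 (0.0559) or 3 (0.0662) and after median-of-ratios scaling (0.0501). Samd9l, a growth and translation inhibitor, was at 4.08 ± 0.403, 4.87 ± 0.527 and 5.1 ± 0.31 FPKM. Its rise with IL-1β (adjusted p = 0.048) was lost without control replicate 1 (0.0809) or 2 (0.179), IL-1β replicate 2 (0.058) or 3 (0.184), or co-culture replicate 2 (0.0585) or 3 (0.0603). That rise of Samd9l was also lost without trend and robust moderation (0.0534) and in a fit of the 2 groups alone (0.0672). Its higher level in co-culture than in control (adjusted p = 0.0369) was lost without control replicate 1 (0.0784) or 2 (0.133) or co-culture replicate 2 (0.11) or 3 (0.104).

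Co-culture was next compared with IL-1β alone over all these genes. Irf7, Igtp, Parp9, Dtx3l and Irf1 had the largest higher calls, from 0.75 to 0.38 on the log2 scale, and Ifi27, Ifnar1, Ifngr1 and Ifnar2 the largest lower ones, from -0.54 to -0.32. Of the 31 genes, 11 were higher, against 33.3% of all tested genes, and 7 lower, against 16.7% (50% of all genes in either direction), and 13 did not pass. Groups did not overlap for 21 of the 31, against 56.7% of all genes. The median log2 fold change was 0.12 for the 31 and 0.062 for all genes. After median-of-ratios scaling 10 were higher and 8 lower, while over all genes the calls went from 3786 higher and 1901 lower to 2721 and 2636. This comparison shares the IL-1β libraries with the first, so its signs are not independent of those given there.

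Co-culture was also set against control. Of the 31 genes, 6 were higher (Ifnar2, Ifngr1, Usp18, Ifitm2, Ifi27 and Samd9l), against 12.4% of all tested genes, and 3 lower (Stat2, Ifit2 and Ifitm3), against 7.91% (29% of the 31 and 20.3% of all genes in either direction). Groups did not overlap for 14 of the 31, against 37.8% of all genes. The largest difference was that of Ifit2, -0.44 ± 0.05, a ratio of mean FPKM of 0.719. The median was -0.02 for the 31 and 0.018 for all genes. For the 22 genes that did not pass, this does not show that co-culture equalled control: the 95% interval for Irf7 was -0.45 to 0.01.

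**Figure D5:**
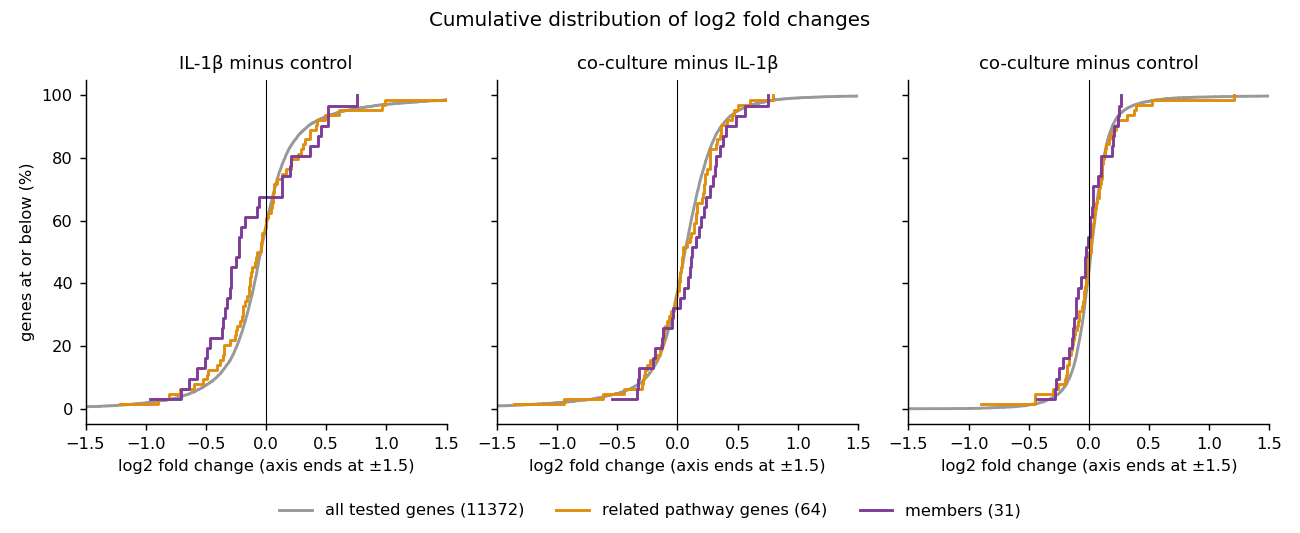
Cumulative share of genes (percent) at or below each log2 fold change in the 3 comparisons, for all 11372 tested genes (grey), 64 related pathway genes (orange) and the 31 genes described here (purple, members). With IL-1β the purple and grey medians are -0.23 and -0.044, and for co-culture against control they are -0.02 and 0.018.

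Other genes of the pathway were read from a list of 110 symbols, of which 90 were found and 64 tested. With IL-1β, 16 were higher and 23 lower (25% and 35.9%, against 20.5% and 31.2% of all genes). For co-culture against IL-1β, 25 were higher and 15 lower (39.1% and 23.4%, against 33.3% and 16.7%), and for co-culture against control, 9 and 7 (14.1% and 10.9%, against 12.4% and 7.91%). Of 11 interferon ligand genes on the list 2 were found: Ifne at 0.03 to 0.28 FPKM, and Ifnk, listed at 0 in 8 of 9 libraries and at 0.1 FPKM in IL-1β replicate 1. The chemokine gene Cxcl10, an interferon reporter, lay below the test level, at 0.34, 0.94 and 0.68 FPKM in control, 1.17, 1.18 and 1.25 with IL-1β and 0.48, 1.81 and 0.67 in co-culture. Among 12 tested genes of signalling and its brakes, 5 were higher and 4 lower with IL-1β. The receptor kinases Jak1 and Jak2 diverged: Jak1 went from 106 ± 2.83 to 80.7 ± 1.6 FPKM (-0.39 ± 0.03, adjusted p = 1.34e-06) and Jak2 from 35.3 ± 1.24 to 54.2 ± 0.772 FPKM (0.60 ± 0.03, adjusted p = 3.84e-08). Tyk2, another receptor kinase, was at 7.69, 7.04 and 7.12 FPKM in control and lower, at 6.58, 6.14 and 6.04, with IL-1β.

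Among 40 further interferon-stimulated genes tested, 8 were higher and 18 lower with IL-1β (20% and 45%, against 20.5% and 31.2% of all genes). Plscr1, a phospholipid scramblase, had the smallest p, rising from 13.5 ± 0.685 to 47.9 ± 0.55 FPKM (1.75 ± 0.04, adjusted p = 1.57e-11), and was at 18.1 ± 0.572 in co-culture. Its change was larger than that of any of the 31 genes, which ran from -0.97 to 0.75. Ube2l6, the conjugating enzyme for ISG15, rose from 27.8 ± 2.04 to 55.1 ± 0.635 FPKM (adjusted p = 1.33e-08), and Ripk2, a kinase of bacterial sensing, from 12.2 ± 0.391 to 25.3 ± 0.218 FPKM (adjusted p = 9.28e-10). Slfn5 fell from 13.3 ± 0.887 to 7.14 ± 0.231 FPKM (-0.81 ± 0.05, adjusted p = 1.54e-07) and Apol9a from 4.52 ± 0.695 to 1.95 ± 0.185 FPKM (-0.90 ± 0.09, adjusted p = 9.13e-06). The related genes Oas1g and Oas1i, named after their values were seen, alternated between listed zeros: Oas1g was at 0, 2.75 and 0 FPKM and Oas1i at 2.56, 0 and 2.4 in the same control libraries. Levels of single OAS genes are therefore uncertain.

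The promoter motifs were set beside the response to IL-1β. Of the genes with a window, an ISRE core was found in 8 of 13 that fell (Irf7, Ifih1, Igtp, Ifitm3, Eif2ak2, Parp14, Dtx3l and Ifi44), in 2 of 7 that rose (Ifitm2 and Ifi27), in 3 of 4 that did not pass and in 6 of 10 below the test level. The risers with a window but no ISRE core were the receptors and Irf3. Usp18, Samd9l and Irf2, which also rose, had no window. Direction and kind of gene therefore cannot be told apart here, and a link of the ISRE core to direction was not tested. The GAS core was found in 4 of the 13 that fell, 1 of the 7 that rose, 2 of the 4 that did not pass and 2 of the 10 below the test level. The NF-kB core was found in 0 of the 13 that fell, in 2 of the 7 that rose (Ifngr2 and Irf3) and in 0 of the 4. It was also found in 1 of the 10, Gbp5, which was called lower when no filter was set. Only GGG, any 2 bases and TTTCC was searched, so a 0 does not show that looser NF-kB sites are absent. Irf1, which fell, holds GGGGAATCCC. In Igtp and Parp14 the GAS core is followed after 2 bases by the ISRE core, as the printed sequences show. That combination, on either strand, was in 7 of the 27457 windows (0.0255%) and was searched for after the sequences and values had been seen. The search fixed the gap at 2 bases, so Bst2 is not among them. Its GAS core, at -137, is also followed by an ISRE core, at -125, with another gap. Bst2 did not pass with IL-1β (-0.20, adjusted p = 0.267). Of the 7 genes, 6 were measured and 4 were tested: Igtp, Parp14 and the IRG family GTPases Irgm and Irgm2. Irgm was at 6.53, 6.22 and 7.25 FPKM in control, 4.13, 4.03 and 4 with IL-1β and 5.44, 5.99 and 5.73 in co-culture. Irgm2 was at 4.04, 3.49 and 3.61 FPKM in control, 2.22, 2.37 and 2.44 with IL-1β and 3.91, 3.54 and 3.48 in co-culture. Igtp and Parp14, from which the combination was read, were already known to be lower. Irgm and Irgm2 were fitted in the same data before the search, so they are further cases and no test of the combination. Both were lower with IL-1β, as were 31.2% of all tested genes, Irgm by -0.60 (adjusted p = 5.97e-06) and Irgm2 by -0.49 (adjusted p = 7.25e-05), and higher in co-culture than with IL-1β, by 0.41 and 0.47. Igtp, Irgm and Irgm2 belong to 1 gene family and may share reads as well as promoter sequence, so they are not independent cases.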

How the data were processed

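Poly(A)-enriched RNA was sequenced. The authors deposited 1 table of FPKM values with 2 decimals, 1 column per library, per the file headers. Per the submitters' processing notes the build was GRCm38, a mouse build, although the genes carry rat identifiers (46 of the 47 matched the rat RefSeq table), and which sequence the reads were aligned to is not settled. Aligner, counter and annotation: not given in the sources used here. Depth is unknown, so precision rests on 3 libraries per group. A search for genes with several listed zeros and otherwise similar values found 43, of which 8 to 19 per library were above 0. Whether these values are steps of single reads was not tested, and depth was not recovered from them. FPKM sums were 679774 to 741810 per library, and rank correlations 0.9946 to 0.9959 within groups and 0.9584 to 0.9912 between them.

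Genes with a mean of at least 1 FPKM entered a limma 3.58.1 model (R 4.3.3) of log2(FPKM + 1), 1 coefficient per group over all 9 libraries, with trend and robust moderation. Tests had both sides, Benjamini-Hochberg adjustment over all 11372 genes and a threshold of 0.05. The fit was tested on simulated data. The 48 genes and all lists were chosen with earlier results of these data known, so no list was tested as a set. Named were all 48 genes, of the 110 related genes Cxcl10, up to 8 of smallest p per comparison and the 2 of highest level per list, and Il6 and Nfkbia (the latter at 20, 88.1 and 26.7 FPKM in the 3 groups). Irgm2 with IL-1β, Tyk2, Oas1g, Oas1i and single markers were named after their values were seen. The 18 alternatives changed the pseudocount, filter, scaling, moderation or groups fitted, added a replicate block, or left out 1 library.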

Additional observations from a re-analysis of the deposited data

How the results depend on the processing

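Over 18 alternatives, 73 of the 93 pairs of gene and comparison (31 genes, 3 comparisons) kept their side of the threshold in all of them, 12 lost a call in at least 1, 8 gained one, and 0 called values changed sign. Without a filter on low values the median log2 fold change with IL-1β was -0.058 over 47 genes instead of -0.228, because the 16 genes near 0 FPKM enter it, and calls of Samd9l, Irf2 and Usp18 were lost (adjusted p = 0.0587 to 0.0888 over the 5 calls). With 1 library left out, 7 to 10 of the 31 genes were higher and 14 to 17 lower with IL-1β, 10 to 13 and 5 to 7 for co-culture against IL-1β, and 4 to 5 and 2 to 4 for co-culture against control. After median-of-ratios scaling, the IL-1β calls over all genes were 2887 higher and 2877 lower instead of 2330 and 3544, while 10 and 16 of the 31 genes were called. Correlations of deviations from the group means were -0.046 to 0.189 for same-numbered replicates (8 of 9 above 0, 1 of 9 over 0.1) and -0.221 to 0.133 for other numbers (8 of 18 above 0). The best partner of 6 of the 9 libraries had the same number, and 3 were best with their own number in both other groups. This is a hint of pairing from the data, not the design, and since not every same-number correlation was over 0.1 the numbers were not taken as pairs. With the replicate block, 10 of the 31 genes were higher and 17 lower with IL-1β, 12 and 6 for co-culture against IL-1β, and 6 and 2 against control. Depth is unknown, so the number of fragments behind values below 1 FPKM is too.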
